A study of Mus musculus with 8 samples.

Results

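Citrulline, arginine and proline synthesis was followed through 9 genes, Nags, Cps1, Otc, Ass1, Asl, Aldh18a1, Oat, Pycr1 and Prodh. Every probe set listed with exactly 1 gene symbol, that symbol being a member, was taken. This gave 14 of the 45037 probe sets other than controls, for 8 of the 9 genes, and Pycr1 was not analysed here. The samples were small intestines of mouse fetuses at 18.5 days post coitum, 4 from Plagl2 knockouts and 4 from wild-types, with 1 expression array each. The product of Plagl2 is a DNA-binding zinc finger protein related to PLAG1. The labels do not give the deleted part of the gene, the strain, the litter or whether an intestine came from 1 fetus, and p-values therefore measure only the spread between these samples. The whole organ was used, so fewer cells of a type and less RNA per cell cannot be told apart.

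The pathway starts in mitochondria. N-acetylglutamate, made by the Nags enzyme, switches on Cps1, which makes carbamoyl phosphate, and Otc joins this to ornithine to give citrulline. Aldh18a1 turns glutamate into pyrroline-5-carboxylate, a compound that Oat converts to ornithine and Pycr1 to proline, while Prodh forms it from proline. In the cytosol Ass1 and Asl turn citrulline into arginine. Enterocytes of newborn rodents and pigs make arginine by this route, whereas the adult gut mainly releases citrulline, which the kidney turns into arginine.

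In knockout intestine Ass1 and Asl, of the last steps to arginine, and Aldh18a1 and Prodh, which feed and drain the proline branch, were called lower. Cps1 was called lower by a small amount, while Otc, Oat and Nags were not called. Under alternative processing the call of Cps1 ended in 11 of 19 fits and that of the dim Ass1 probe set in 4 of 18. Of the 14 member probe sets, all bright enough for the test, 9 were lower and 0 higher in the knockout at a Benjamini-Hochberg adjusted p under 0.05 in limma. Over all 27022 probe sets tested, 6.70% were called lower and 5.28% higher. With each gene represented by its tested probe set of highest mean, 5 of 8 member genes were lower (Ass1, Asl, Cps1, Aldh18a1 and Prodh), against 8.50% of 12838 genes. The median log2 fold change was -0.49 over the 8 member genes and 0.03 over all genes tested. All fold changes divide knockout by wild-type and are given on the scale of log2(signal + 16), which makes changes of dim probe sets look smaller. In 8 of the 14 member probe sets, all 8 of them called lower, every knockout array lay below every wild-type array. This held for 9.26% of all probe sets tested. In 0 of the 14 did every knockout lie above, against 7.70%. Asl, Prodh and Ass1 fell by at least 1 on the log2 scale, which 2.70% of all genes tested did while passing the threshold. The genes had been picked with earlier results of these data known, so these shares describe them and are no test of the pathway.

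Some facts of the whole set of arrays bear on these values. Plagl2 gave signals of 1 to 11 in knockouts and 697 to 892 in wild-types by its brighter pair of probe sets (1417517_at and 1417519_at). The labels' extraction text names wild-type intestines for all 8 samples, while titles and source names give 4 knockouts. Xist, transcribed from the inactive X chromosome, was at 1828 in knockout replicate 2 and 1410 in knockout replicate 3 (the Xist arrays below), and at most 47 in the other 6 arrays, so the sexes were not balanced. The log2 difference between 3' and 5' probe sets of the control transcripts (the 3'/5' ratio below) was 0.017 to 0.098 in knockouts and -0.055 to 0.0066 in wild-types (difference 0.0639, exact two-sided permutation p = 0.0286, the smallest possible for 4 against 4). Of 10 enterocyte and epithelial markers 0 were lower and 2 higher in the knockout, or 3 higher without knockout replicate 4. The 2 were Krt20 at 2.55 and Krt8 at 0.52 on the log2 scale. The call of Krt8 ended with the Xist signal or the 3'/5' ratio in the model. Summed signals of these markers were 56415 to 68571 in knockouts and 51986 to 59443 in wild-types. Cps1, Otc, Ass1 and Asl are also strongly expressed in hepatocytes. Of 9 hepatocyte markers with a probe set, 7 were highest of all 8 arrays in knockout replicate 4. Without Ttr, their summed signal was 8619 in that array, 116 to 1170 in the other knockouts and 506 to 647 in wild-types. Albumin (Alb) gave 4646 there, against 4 to 656 in the other knockouts (656 in knockout replicate 1) and 15 to 122 in wild-types. Of the hepatocyte list 1 of 6 tested genes (Ttr) was lower, a call lost when the model held the Xist signal (adjusted p = 0.0677) and when it held the 3'/5' ratio (0.136). Without knockout replicate 4 there were 3 of that list lower, while 3 were higher with the Xist signal in the model and 3 without the Xist arrays. The part of this signal, of the sexes and of the 3'/5' ratio in the results was not tested beyond the alternatives given beside them. The 3'/5' ratio and the Xist signal both went partly with genotype, so models that held either could not fully separate it from genotype. Of 6 tested pancreatic acinar markers 0 were called with all 8 arrays or in any alternative, those of smallest p being Cpb1 (0.79, adjusted p = 0.588) and Cela2a (0.42, 0.718). Their summed signal varied within both genotypes. It was 4751 in knockout replicate 1, 2903 in wild-type replicate 2 and 2419 in wild-type replicate 3, against 336 to 886 in the other arrays. The part of the acinar signal in the results was not tested. Of 7 mesenchyme and muscle markers 0 were called with all 8 arrays, those of smallest p being Col1a1 (0.54, adjusted p = 0.0859) and Myh11 (0.51, 0.125). In that list 3 were higher without knockout replicate 3 and 3 without the Xist arrays, 2 with the Xist signal in the model and 2 with array weights, and 1 without wild-type replicate 3. Among the renal markers, 1 of 3 tested was lower (Kap, -0.65, a call that ended in 10 of 19 alternatives). Over all genes tested 8.50% were lower and 6.60% higher, the shares to set beside these marker counts.

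**Figure D1:**
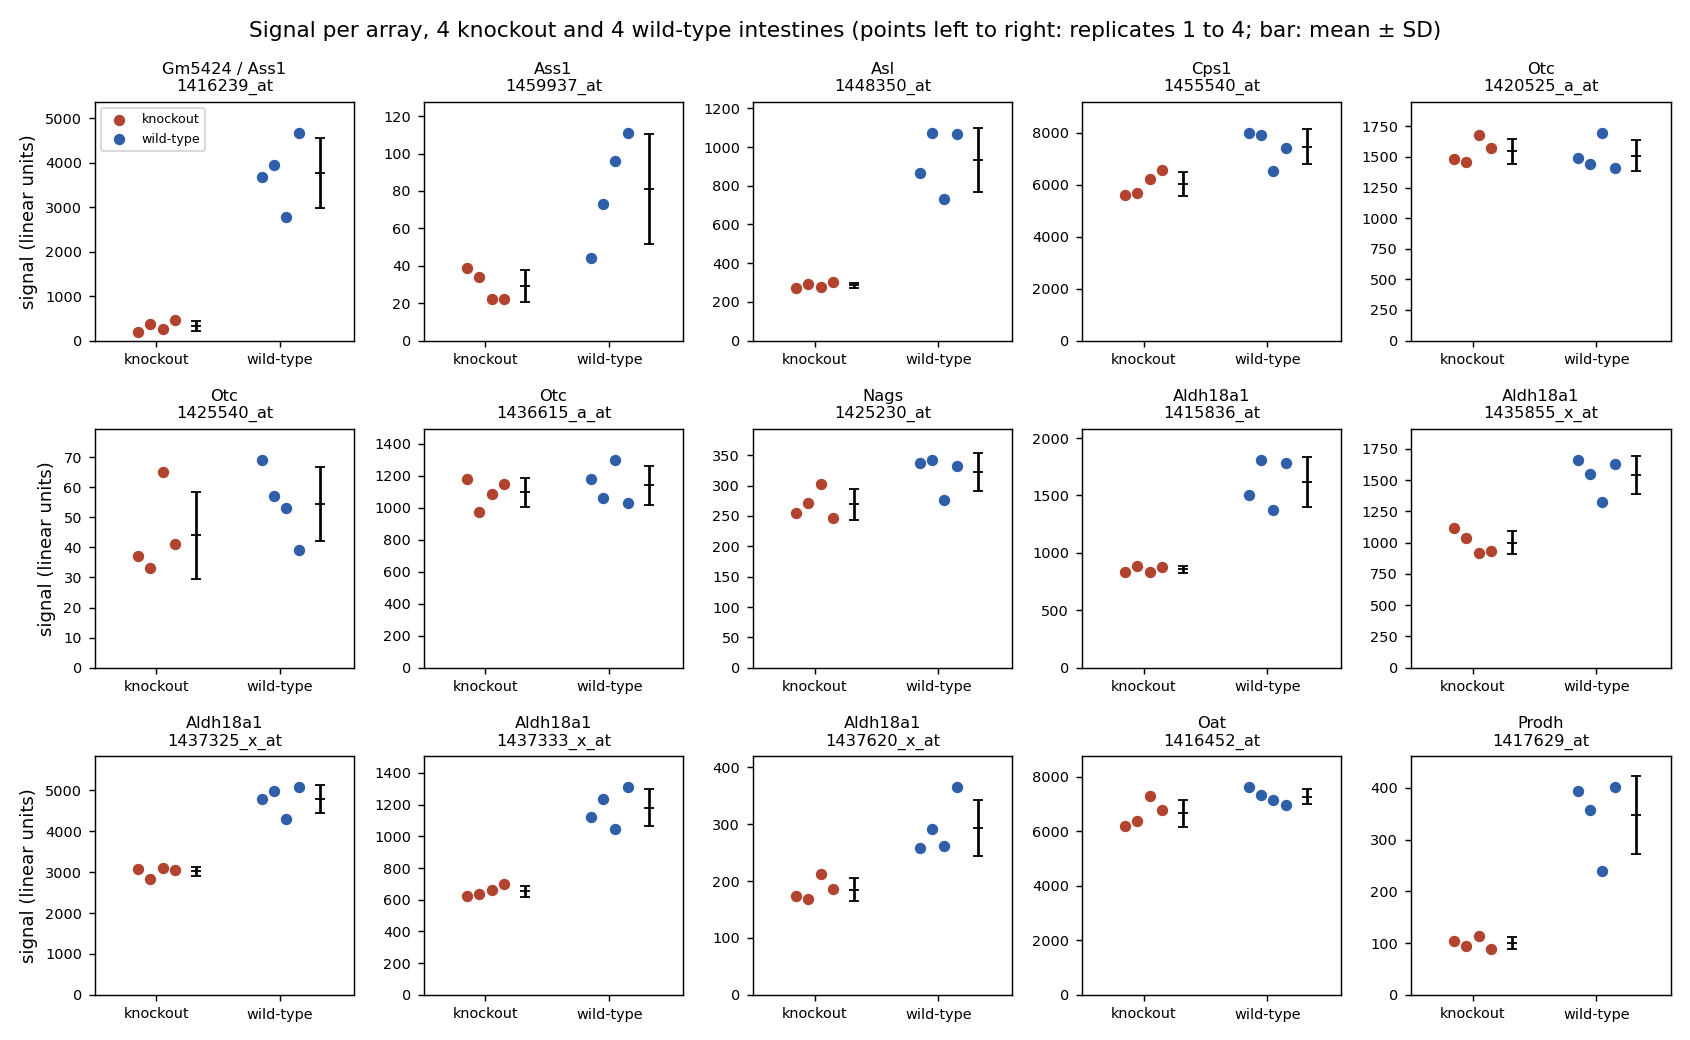
Signal of each probe set on a linear scale from 0 (vertical axes) in 4 knockout intestines (red, left) and 4 wild-type intestines (blue, right), points from left to right being replicates 1 to 4 and bars the mean ± SD. The first panel is the probe set listed under Gm5424 and Ass1 together, at 197 to 454 in knockouts and 2774 to 4673 in wild-types, and the Asl panel shows 270 to 301 in knockouts and 731 to 1073 in wild-types.

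Asl, argininosuccinate lyase, which splits argininosuccinate into arginine and fumarate (GRCm38.p6, chromosome 5, 130011258 to 130024381), fell in every knockout. Its probe set 1448350_at gave signals of 270, 291, 278 and 301 in knockouts and 868, 1073, 731 and 1068 in wild-types. The knockouts lay close together and none reached the lowest wild-type. The mean signal in knockouts, 285 ± 13.7, was 30.5% of that in wild-types, 935 ± 166 (SD, n = 4 each). The log2 fold change was -1.64 ± 0.13 (SE, adjusted p = 7.15e-06), and the call stayed in each of 19 alternatives, which gave -1.75 to -1.50. Without knockout replicate 4, the array with the highest hepatocyte signal, it was -1.67 (adjusted p = 1.96e-05). Knockout replicate 4 was the highest of the knockouts for Asl.

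Ass1, argininosuccinate synthase, makes the substrate of Asl from citrulline and aspartate (chromosome 2, 31470270 to 31520670). The probe set assigned to it alone, 1459937_at, was dim, with signals of 39, 34, 22 and 22 in knockouts and 44, 73, 96 and 111 in wild-types. The groups did not overlap, although knockout replicate 1 came within a few units of wild-type replicate 1. The log2 fold change was -1.06 ± 0.24 (SE, adjusted p = 0.0133). Adding 1 instead of 16 before the logarithm gave -1.40, and adding 64 gave -0.62. The call ended when the Xist signal entered the model (adjusted p = 0.0706), when the 3'/5' ratio did (0.168), and also when the knockouts with Xist signal were left out (0.0745). The log2 fold change was -1.06 ± 0.32 (SE) with the Xist signal in the model and -1.05 ± 0.39 with the 3'/5' ratio.

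A far brighter probe set, 1416239_at, is listed in the platform annotation under 2 symbols, Ass1 and Gm5424, and so stood outside the 14. Gm5424 is annotated as a transcribed pseudogene (chromosome 10, 62071022 to 62072571), and the array cannot say which of the 2 transcripts gave the signal. Its signals were 197, 381, 255 and 454 in knockouts and 3683, 3952, 2774 and 4673 in wild-types. The highest knockout was below the lowest wild-type. The mean was 322 ± 117 in knockouts and 3771 ± 785 in wild-types (SD, n = 4 each), and the log2 fold change was -3.53 ± 0.23 (SE, adjusted p = 1.99e-06). The call stayed in each of the 19 alternatives, with -3.71 to -3.28. Among knockouts it was highest in replicate 4, and leaving that array out gave -3.71 on the log2 scale.

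Cps1, carbamoyl phosphate synthetase of mitochondria and the entry point of the urea cycle (chromosome 1, 67122426 to 67231267), had a small decrease. Its signals at 1455540_at were 5608, 5672, 6217 and 6572 in knockouts and 7997, 7925, 6547 and 7403 in wild-types. Knockout replicate 4 reached just above wild-type replicate 3, so the groups overlapped. Knockouts averaged 6017 ± 460 and wild-types 7468 ± 669 (SD, n = 4 each), with a log2 fold change of -0.31 ± 0.08 (SE, adjusted p = 0.0322). The call ended in 11 of 19 alternatives, among them 5 that left out 1 array, namely knockout replicates 1 and 2 and wild-type replicates 1, 2 and 4 in turn (adjusted p = 0.0661 to 0.111), and the fit without a filter (0.101). Without wild-type replicate 3 the log2 fold change was -0.37 (adjusted p = 0.00808).

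Otc, ornithine transcarbamylase, which makes citrulline and is encoded on the X chromosome (10252230 to 10321024), was not called at any of its 3 probe sets. At 1420525_a_at the signals were 1481, 1456, 1679 and 1571 in knockouts and 1491, 1446, 1696 and 1409 in wild-types. The groups covered the same range, and the 2 knockouts with Xist signal, replicates 2 and 3, were the lowest and the highest of the knockouts. In log2 terms the change was 0.04, with a 95% interval of -0.16 to 0.23 (adjusted p = 0.846). At 1436615_a_at it was -0.05 (interval -0.27 to 0.17) and at the dim 1425540_at, with signals of 33 to 65 in knockouts and 39 to 69 in wild-types, -0.24 (interval -0.69 to 0.21). Neither of these intervals reaches the decrease of Asl.

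Nags, whose product is required for Cps1 activity (chromosome 11, 102145513 to 102149528), did not pass the threshold. Its signals at 1425230_at were 255, 272, 303 and 246 in knockouts and 338, 342, 276 and 333 in wild-types. Wild-type replicate 3 lay apart from the other wild-types, between the knockouts. Its log2 fold change was -0.25 with an interval of -0.50 to 0.0030 (adjusted p = 0.201).

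Aldh18a1, pyrroline-5-carboxylate synthase (chromosome 19, 40550257 to 40588463), was lower at each of its 5 probe sets. The signals at 1437325_x_at, the brightest, were 3064, 2841, 3108 and 3048 in knockouts and 4793, 4992, 4287 and 5073 in wild-types. At 1415836_at they were 830, 889, 830 and 880 in knockouts and 1501, 1808, 1370 and 1785 in wild-types. At both, and at the other 3 probe sets, no knockout reached a wild-type. The log2 fold change was -0.66 ± 0.08 (SE, adjusted p = 0.000131) at 1437325_x_at and -0.89 ± 0.10 (SE, adjusted p = 0.000133) at 1415836_at. The other 3 gave -0.83, -0.62 and -0.61, so the 5 measures of this gene differed by less than 0.3 from each other. Probe sets with the ending _x_at hold probes that can also match other transcripts, whereas 1415836_at has no such ending. The call of the dimmest, 1437620_x_at, ended with the 3'/5' ratio in the model (adjusted p = 0.191), and no other Aldh18a1 call ended in any alternative.

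Oat, ornithine aminotransferase, which links pyrroline-5-carboxylate and ornithine (chromosome 7, 132557475 to 132576398), was not called. At 1416452_at its signals were 6194, 6367, 7302 and 6802 in knockouts and 7619, 7325, 7165 and 6973 in wild-types, with overlapping groups. The log2 fold change was -0.13, with an interval of -0.28 to 0.03 (adjusted p = 0.291).

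Prodh, proline dehydrogenase of mitochondria, which takes proline back to pyrroline-5-carboxylate (chromosome 16, 18071726 to 18089283), fell about as far as Asl. Its probe set 1417629_at gave 105, 94, 114 and 89 in knockouts and 394, 358, 239 and 401 in wild-types. Every knockout was below the lowest wild-type, replicate 3. The mean of the knockouts, 101 ± 11.2, was 28.9% of that of the wild-types, 348 ± 75.1 (SD, n = 4 each). The log2 fold change was -1.62 ± 0.16 (SE, adjusted p = 4.96e-05). In the 19 alternatives it was -1.91 to -1.31, each of them called.

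**Figure D2:**
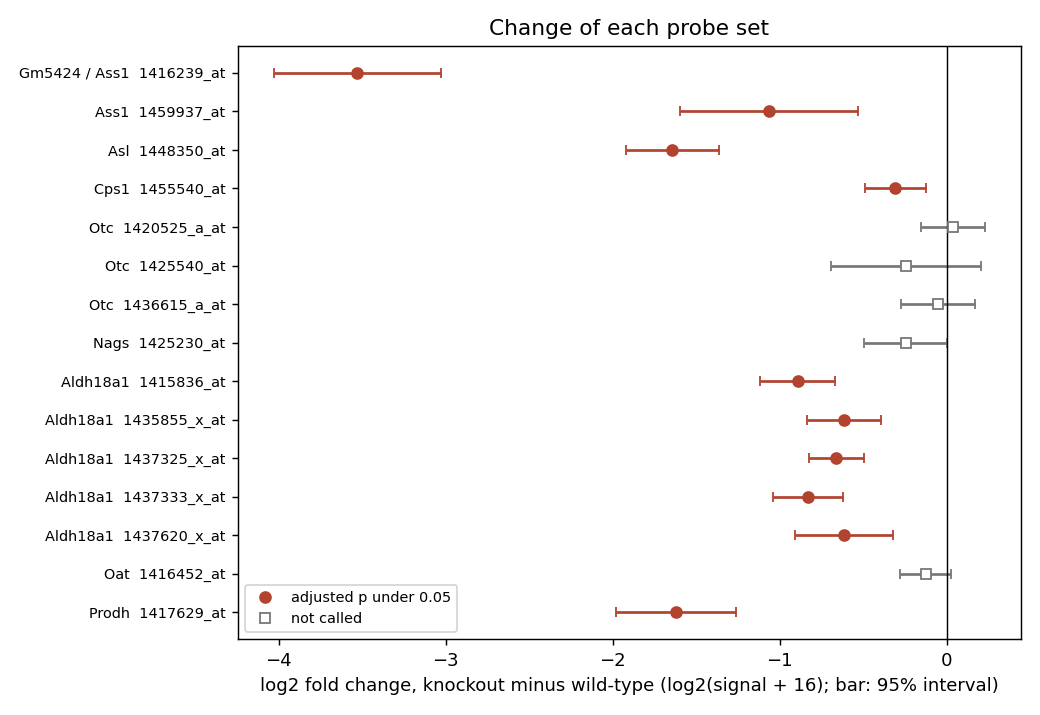
Log2 fold change of knockout over wild-type (horizontal axis, log2(signal + 16) scale) for each probe set, with its 95% interval from limma. Filled red circles passed an adjusted p of 0.05 and open grey squares did not. Asl (-1.64) and Prodh (-1.62) lie far to the left of the 3 Otc probe sets (0.04, -0.24 and -0.05) and of Oat (-0.13).

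Set against each other within arrays, the log2 fold change of Asl minus that of Otc was -1.68, and that of Asl minus that of Cps1 was -1.33. The difference was -0.53 for Aldh18a1 minus Oat and -1.49 for Prodh minus Oat. These 4 pairs were chosen after the values were seen, so the differences are a description with no test.

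Wild-type replicate 3 was the lowest wild-type in 7 of the 9 lower member probe sets. The same held for 62.3% of all probe sets called lower in the knockout. Without this array the log2 fold changes were -1.75 for Asl, -1.78 for Prodh and -0.98 for the Ass1 probe set 1459937_at, each still called. In 2 of the 14 probe sets, both of Otc, it was the highest wild-type.

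Promoters are shown because the gene knocked out encodes a DNA-binding protein. They are those of the lower members that the RefSeq promoter set (GRCm38.p6) lists, Ass1, Prodh and Aldh18a1. That of Oat is added as a member that was not called. Each sequence runs from 250 bases before the start to 50 after it, 5′ to 3′ on the gene's strand. Capitals mark matches, on either strand, to the published consensus of the PLAG family, searched as GGGGC or GAGGC followed by any 6, 7 or 8 bases and then GGG. The positions are chr2:31470020-31470319 on the plus strand for Ass1, chr16:18089141-18089440 on the minus strand for Prodh, chr19:40588414-40588713 on the minus strand for Aldh18a1 and chr7:132576349-132576648 on the minus strand for Oat.
Ass1: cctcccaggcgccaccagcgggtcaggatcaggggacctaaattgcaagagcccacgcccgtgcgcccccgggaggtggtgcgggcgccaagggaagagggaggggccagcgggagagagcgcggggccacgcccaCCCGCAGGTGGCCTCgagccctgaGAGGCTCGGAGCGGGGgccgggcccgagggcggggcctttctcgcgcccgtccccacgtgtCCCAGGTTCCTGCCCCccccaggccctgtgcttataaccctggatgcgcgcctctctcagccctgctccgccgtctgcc
Prodh: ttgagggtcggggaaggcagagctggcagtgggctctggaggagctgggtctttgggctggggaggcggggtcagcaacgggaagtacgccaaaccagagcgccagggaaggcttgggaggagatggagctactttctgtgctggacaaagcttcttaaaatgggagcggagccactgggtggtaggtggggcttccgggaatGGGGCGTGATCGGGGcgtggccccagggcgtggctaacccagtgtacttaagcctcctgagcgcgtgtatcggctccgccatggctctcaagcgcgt
Aldh18a1: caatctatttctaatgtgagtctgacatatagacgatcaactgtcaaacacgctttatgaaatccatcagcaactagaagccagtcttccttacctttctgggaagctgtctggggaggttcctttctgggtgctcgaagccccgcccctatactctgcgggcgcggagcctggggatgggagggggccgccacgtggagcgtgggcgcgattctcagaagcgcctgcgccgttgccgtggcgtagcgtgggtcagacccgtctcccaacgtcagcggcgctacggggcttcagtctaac
Oat: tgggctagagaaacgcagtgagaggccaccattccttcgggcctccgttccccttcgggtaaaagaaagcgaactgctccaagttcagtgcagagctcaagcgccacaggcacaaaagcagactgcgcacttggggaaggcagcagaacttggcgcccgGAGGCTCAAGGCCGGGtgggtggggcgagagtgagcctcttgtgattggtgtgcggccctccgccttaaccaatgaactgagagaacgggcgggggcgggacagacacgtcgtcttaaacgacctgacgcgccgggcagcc

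Of the 7 members with a listed promoter (Ass1, Otc, Nags, Aldh18a1, Oat, Pycr1 and Prodh), 3 held such a match, Ass1, Prodh and Oat, against 22.7% of 32851 promoters of the same length. Ass1 held matches that begin 114, 90 and 29 bases before the start, the one at 90 fitting both a 7-base and an 8-base spacer. Prodh held a match 47 bases and Oat one 91 bases before the start. The start listed for the Prodh promoter lies inside the gene span given above, which reaches 18089283. Its match therefore lies within that span and not upstream of the gene. The match was thus present in a member that was not called (Oat) and absent from that of a lower one (Aldh18a1). These promoters are rich in G and C (74% for Ass1, 63% for Prodh and 61.7% for Oat, against a median of 52.7% over all promoters), which makes such letters common. The amino acid response element TGATGNAA was found in the Pycr1 promoter and in no other of the 7, against 3.97% of all promoters. The E-box CACGTG stood in those of Ass1 and Aldh18a1, against 7.15% of all. A match is a run of letters, and none was tested for binding.

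Arginine use, the next step, split in both directions. Of 9 tested genes, 3 were lower and 2 higher in the knockout, against 8.50% lower and 6.60% higher over all genes, with a median log2 fold change of -0.13 (0.03 over all genes). Arg2, the mitochondrial arginase, was at 2410, 2029, 2728 and 1326 in knockouts and at 18, 17, 12 and 9 in wild-types, an opposite change to that of the genes that make arginine. Agmat, annotated as agmatinase, fell to 125, 55, 83 and 118 in knockouts, against 932, 741, 729 and 707 in wild-types (log2 fold change -2.88 ± 0.20, SE, adjusted p = 2.95e-06). Gatm and Gamt catalyse successive steps that make creatine from arginine and glycine, and both were lower. Gatm was at 83, 56, 47 and 86 in knockouts and at 475, 477, 76 and 428 in wild-types, where replicate 3 sat among the knockouts. Its log2 fold change was -1.94 (adjusted p = 0.0156). It was -2.53 without wild-type replicate 3 (5.97e-06), and the call ended without wild-type replicate 1, 2 or 4 (0.052 to 0.0577), with the Xist signal in the model (0.121) and without the Xist arrays (0.125). Gamt was at -0.95 (adjusted p = 0.000781), not called with the 3'/5' ratio in the model (0.0561). Ddah1, which breaks down methylated arginine that inhibits nitric oxide synthases, was higher (1.33, adjusted p = 0.00247). The nitric oxide synthases Nos1 (-0.21) and Nos3 (-0.13) were not called, Nos2 was too dim for the test with signals of 2 to 3 in knockouts and 2 in wild-types, and so was Arg1, the hepatic arginase, which reached 87 in knockout replicate 4 and 1 to 4 in the other knockouts.

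Other reactions of ornithine and proline went both ways too. Of 5 tested genes 2 were lower and 1 higher (median log2 fold change -0.47), against 8.50% lower and 6.60% higher over all genes. Prodh2, which oxidises hydroxyproline, was at 67, 33, 4 and 5 in knockouts and 136, 124, 200 and 123 in wild-types (log2 fold change -2.14 ± 0.40, SE, adjusted p = 0.00379). Its knockout signals were dim, and the size ran from -3.15 to -1.24 in the 18 alternatives that gave a value, each called. Pycrl, a pyrroline-5-carboxylate reductase related to Pycr1, was at -0.47 (adjusted p = 0.0188). Its call ended with the replicate block, with the Xist signal or the 3'/5' ratio in the model, without the Xist arrays, and without knockout replicate 2 or wild-type replicate 2 (adjusted p up to 0.147). Pepd, the peptidase that frees proline from dipeptides, was higher in each knockout, at 1108, 1218, 1505 and 1047, against 625, 519, 720 and 562 in wild-types (0.99 ± 0.13, SE, adjusted p = 0.000426). Odc1, which turns ornithine into putrescine, was at 0.02 and Aldh4a1, which oxidises pyrroline-5-carboxylate to glutamate, at -0.60 (adjusted p = 0.192).

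Among genes that supply glutamate 0 of 6 were lower and 2 higher (median log2 fold change 0.15). Over all genes 8.50% were lower and 6.60% higher, also the shares for the carriers and pyrimidine genes that follow. Gpt, an alanine aminotransferase, was at 1372, 874, 1617 and 529 in knockouts and 186, 259, 166 and 310 in wild-types (log2 fold change 2.10 ± 0.30, SE, adjusted p = 0.000686). Glud1, glutamate dehydrogenase, was also higher (0.49, adjusted p = 0.00977). The call of Gpt ended with the 3'/5' ratio in the model (adjusted p = 0.0638) and that of Glud1 with the replicate block (0.054). In this list 3 were higher with array weights, without the Xist arrays and without knockout replicate 3. Of the mitochondrial carriers 1 of 4 tested was lower and 0 higher, or 1 higher without knockout replicate 4. The lower one was Slc25a13, an aspartate and glutamate exchanger whose aspartate Ass1 uses. It was at 209, 261, 279 and 270 in knockouts and 481, 434, 442 and 504 in wild-types (-0.84 ± 0.12, SE, adjusted p = 0.000512). Slc25a12 of the same list was not called (0.02, adjusted p = 0.949). Slc25a15, which brings ornithine into mitochondria, was at -0.02 (adjusted p = 0.907). Cad, whose carbamoyl phosphate goes to pyrimidines, was higher (0.54, adjusted p = 0.0249), the only call among 3 genes of that branch. It ended without knockout replicate 1 or 4 or wild-type replicate 1, 2 or 4, with the replicate block and with the 3'/5' ratio in the model (adjusted p up to 0.153).

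**Figure D3:**
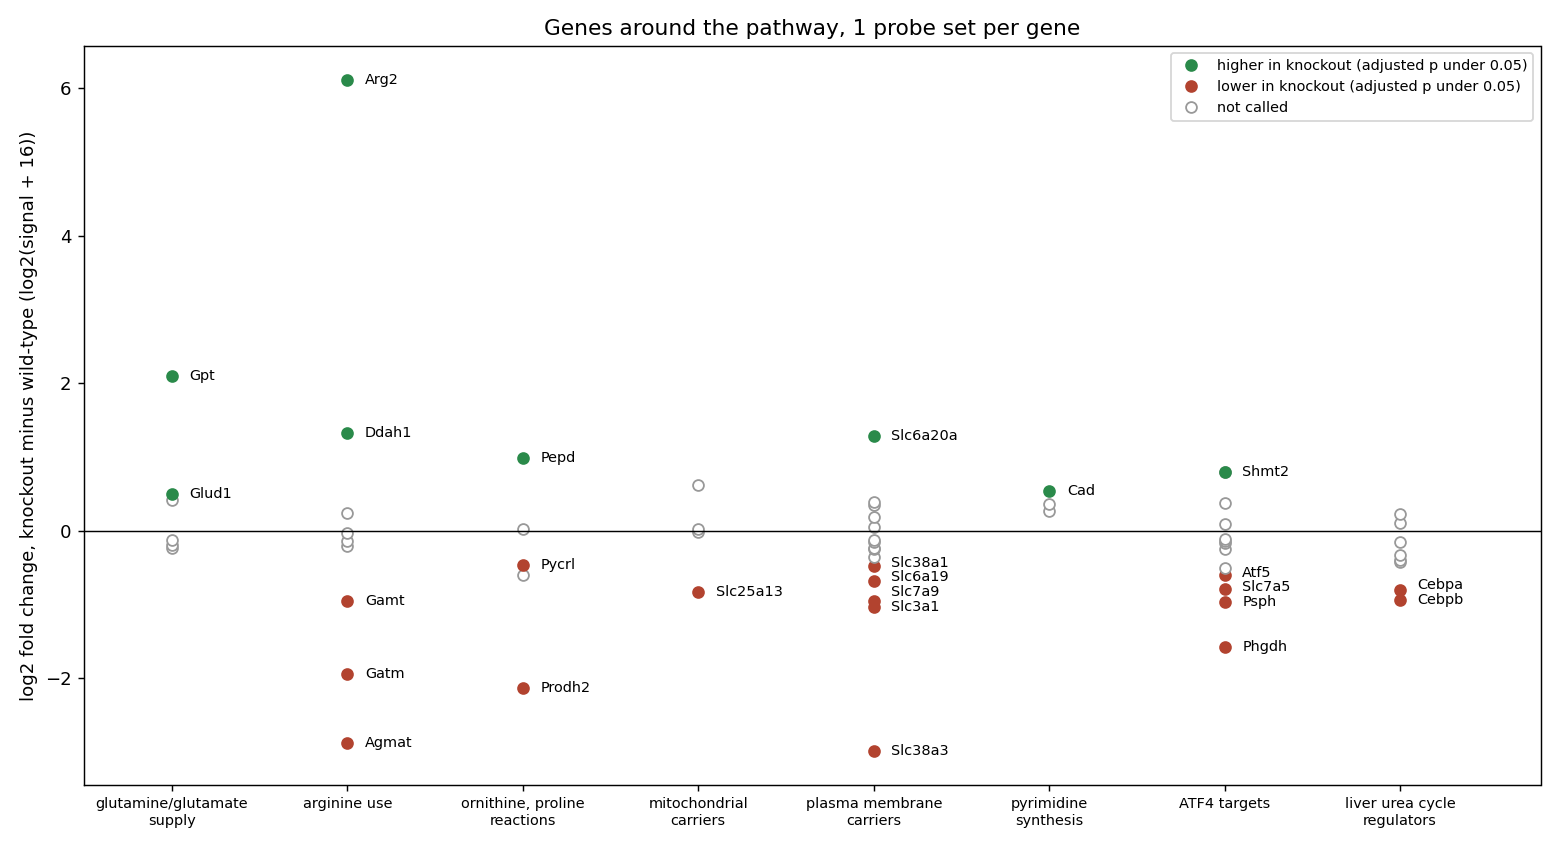
Log2 fold change of knockout over wild-type (vertical axis, log2(signal + 16) scale) for each tested gene of 8 lists around the pathway, 1 probe set per gene. Green points passed the threshold as higher, red as lower, and open grey points did not pass, with the called genes named. Arg2 (6.12) stands above and Slc38a3 (-2.99) and Agmat (-2.88) below all other points shown.

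Of 15 plasma membrane carriers of the pathway's amino acids, 5 were lower and 1 higher (median log2 fold change -0.23). Over all genes 8.50% were lower and 6.60% higher. With the 3'/5' ratio in the model 2 were lower, while with array weights and without wild-type replicate 3 there were 6 lower and 2 higher. Slc38a3, a glutamine transporter, was at 20, 34, 30 and 39 in knockouts and 400, 407, 200 and 460 in wild-types (log2 fold change -2.99 ± 0.24, SE, adjusted p = 7.83e-06). Slc7a9 (-0.95, adjusted p = 0.000654) and Slc3a1 (-1.03, adjusted p = 0.00473), the 2 chains of the transporter for cystine and basic amino acids of the brush border, fell by like amounts. The call of Slc3a1 ended with the 3'/5' ratio in the model (adjusted p = 0.0608), as did that of Slc38a1 (-0.48, then 0.26). Slc6a19, for neutral amino acids, was at -0.68 (adjusted p = 0.0461), and its call ended in 11 of 19 alternatives. Slc6a20a, the proline transporter, rose to 1701, 1660, 2366 and 1562 in knockouts, against 592, 685, 864 and 816 in wild-types (1.28 ± 0.15, SE, adjusted p = 0.000147).

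Regulators known from liver and from amino acid shortage were also read. Of 8 tested regulators of urea cycle genes in liver, 2 were lower and 0 higher (median log2 fold change -0.36). With a filter of 60% and with array weights 3 were lower. Over all genes 8.50% were lower and 6.60% higher. Cebpb was at 444, 424, 443 and 454 in knockouts and 928, 931, 746 and 858 in wild-types (log2 fold change -0.94 ± 0.10, SE, adjusted p = 6.29e-05), and Cebpa was at -0.81 (adjusted p = 0.000728). Both encode C/EBP transcription factors, and neither call ended in any alternative. Hnf4a (0.10) and the glucocorticoid receptor gene Nr3c1 (0.22) were not called. Aldh18a1 is a known target of ATF4, the factor of the amino acid response. A list of other ATF4 targets, with Atf4 itself counted in it, had 13 tested genes. Of these 4 were lower and 1 higher (median log2 fold change -0.17), against the same 8.50% and 6.60% over all genes. The serine synthesis genes Phgdh (-1.58, adjusted p = 2.96e-06) and Psph (-0.97, adjusted p = 0.00025) were lower. Shmt2, a mitochondrial enzyme of serine and glycine exchange, was higher (0.80, adjusted p = 0.000692). Not called were Trib3 (0.80, adjusted p = 0.113), Ddit3 (-0.50, 0.127), Psat1 (0.38, 0.27), Asns (-0.13), Chac1 (-0.17) and Atf4 itself (0.10). Atf5 (-0.61) passed with all 8 arrays, and its call ended with the Xist signal or the 3'/5' ratio in the model and without the Xist arrays (adjusted p up to 0.0766). Slc7a5 (-0.79) passed too, but its call ended in 9 of the 18 alternatives that gave a value, among them leaving out any one of knockout replicates 2, 3 and 4 and wild-type replicates 1, 2 and 4 (adjusted p = 0.0568 to 0.0968). With the Xist signal in the model 2 genes of this list in all were lower and with array weights 5, and without wild-type replicate 3 there were 2 higher.

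The tested genes with the most similar profiles over the 8 arrays were found by the root mean square distance between log2 signals, each gene centred on its mean, among 12837 other genes. For Asl these were Mapkapk3, a protein kinase (distance 0.07), Tcirg1, a subunit of the vacuolar proton pump (0.089), and Nol4l (0.095). Tcirg1, for example, was at 155, 157, 164 and 197 in knockouts and 509, 576, 423 and 589 in wild-types. For Prodh they were Cln3, a lysosomal membrane protein (0.111), Ctsl, a lysosomal protease (0.116), and Mfsd11 (0.116). Each of the 6 had its lowest wild-type value in replicate 3, as Asl and Prodh did, and the distance is set mainly by the step between genotypes.

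**Figure D4:**
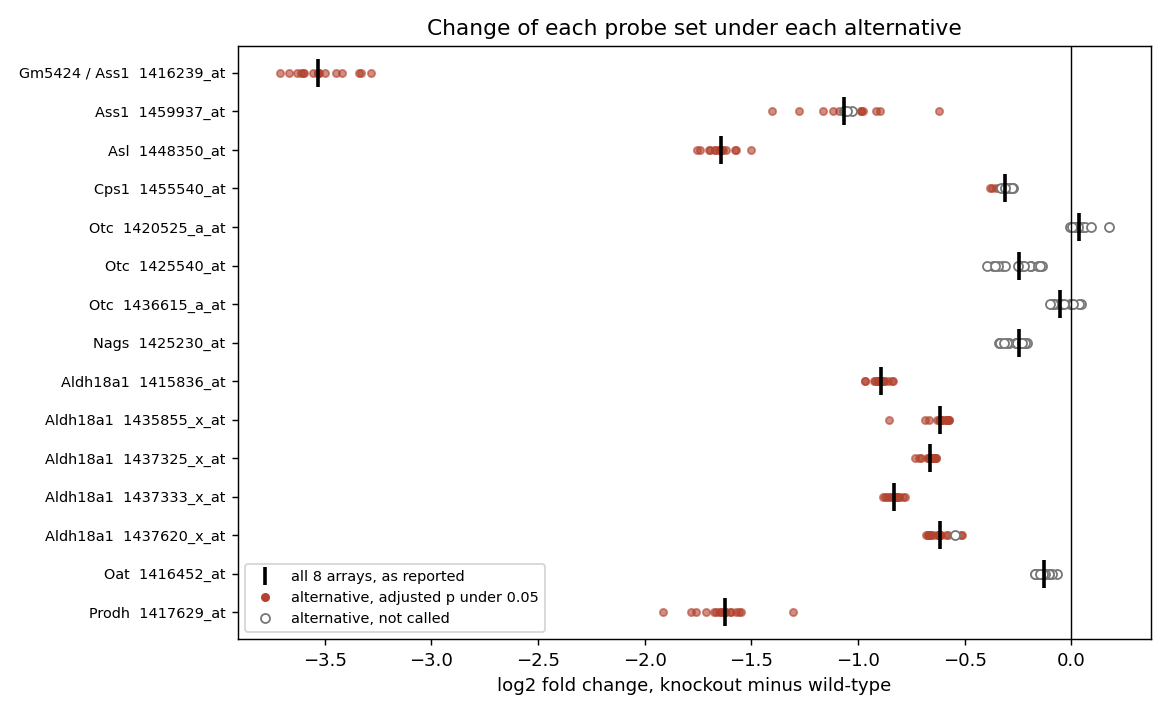
Log2 fold change of each probe set (horizontal axis, knockout over wild-type) with all 8 arrays as reported (black bar) and under each alternative processing (points), filled red where the adjusted p was under 0.05 and open grey where it was not. Asl (-1.75 to -1.50) and Prodh (-1.91 to -1.31) stay called throughout. Open points lie among those of Cps1, of the Ass1 probe set 1459937_at and of the Aldh18a1 probe set 1437620_x_at.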

How the data were processed

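Expression was measured by the authors on Affymetrix mouse arrays in small intestines of 4 Plagl2 knockouts and 4 wild-types. Per the labels, cRNA was made from total RNA with an oligo-dT primer and labelled with biotin. What the authors deposited is a linear signal intensity for each array and probe set. Array means, after trimming 2% at each end, were all about 150.05, so the authors' scaling is in the values. The signal algorithm is not given in the sources used here. Of 45101 probe sets, 34958 have 1 gene symbol in the platform annotation, 932 several and 9211 none.

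Signals were used as log2(signal + 16), without further normalization, since array medians differed by 0.158 at most. The 64 control probe sets and the 40% of the others with the lowest mean (below a signal of about 23.0) were left out. The remaining 27022 went into limma 3.58.1 (R 4.3.3; lmFit, then eBayes with trend), genotype being the only term, two-sided. For counts of genes, the brightest tested probe set stands for the gene. Intervals are 95% intervals from that fit. With 4 arrays per genotype, their number limits the precision.

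Members and lists were chosen with earlier results of these data known. The text names every member, and from each list up to 5 called genes by smallest p, or 2 where none passed. Other named list genes (Nos1, Nos2, Nos3, Arg1, Odc1, Aldh4a1, Slc25a12, Slc25a15, Hnf4a, Nr3c1, Slc6a19, Trib3, Ddit3, Psat1, Asns, Chac1, Atf4 and Alb) and the motifs were chosen after values were seen. Replicate numbers are shared by both genotypes, and the labels do not say whether they pair arrays. Deviations from the group means had correlations of -0.274 to -0.011 between arrays of the same number. Alternatives were other filters, offsets and normalization, the block, array weights, no trend, 2 covariates, the arrays without Xist signal and each array left out. Single values of arrays were compared by exact permutation.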

Additional observations from a re-analysis of the deposited data

Results flagged for a closer look

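Among the 30 groups of 4 arrays looked at (14 member probe sets and the one listed under Gm5424 and Ass1, in each genotype), 1 held an array far from the rest. Nags (1425230_at) gave 276 in wild-type replicate 3, while the other wild-types gave 333 to 342, and the gap made up 0.875 of the range on the log2 scale, above Dixon's critical value for 4 samples. Chance alone gives such a gap in about 1 of 20 groups. Leaving this array out gave Nags a log2 fold change of -0.32 (adjusted p = 0.0749).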

How the results depend on the processing

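The member probe sets called lower numbered 6 to 9 in the 19 alternatives, with 8 to 9 when 1 array was left out, and 0 were higher in each. No member changed direction while called. Asl, Prodh, the probe set listed under Gm5424 and Ass1, and 4 of the 5 Aldh18a1 probe sets stayed called throughout. Over all probe sets tested, the counts moved more. With the replicate block 1164 were lower and 751 higher, and with the 3'/5' ratio in the model 919 and 471. The number higher was 2631 with array weights, 755 with the Xist signal in the model and 820 when the Xist arrays were dropped. With 1 array left out, 1302 to 2169 were lower and 880 to 2082 higher, the lowest counts of higher probe sets being 880 without knockout replicate 2 and 918 without wild-type replicate 1. The block ended the calls of the Ass1 probe set 1459937_at (adjusted p = 0.0638), Cps1 (0.127), Pycrl, Glud1, Cad, Slc6a19 and Kap. The labels do not say whether replicate numbers pair the samples. Of the 4 knockouts, 0 correlated best with the wild-type of its own number, which cannot show whether a litter or run was shared. Why counts and calls moved was not tested. All member probe sets were bright enough for the fit, so the exact test planned for dim ones was not needed, and with the 60% filter the dim Ass1 and Otc probe sets gave no value.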
